A study of Mus musculus with 6 samples.

Results

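The genes described here encode the invariant chains of the T cell receptor complex and its coreceptors. They are the CD3 chains Cd3e, Cd3d and Cd3g, the zeta chain Cd247, both CD8 chains Cd8a and Cd8b1, the costimulatory receptors Cd28 and Icos, and the scavenger-receptor family members Cd5 and Cd6. The 10 genes were taken by name, and all 10 were found among the 22095 gene rows of the deposited table. The rise of Cd8a in these same libraries was known when its comparison with Cd8b1 and the CD3 chains was set. Tests of Cd8a below therefore describe these data and are no independent support for that rise. RNA was from naive CD8+ T cells of C57BL/6 mice, an inbred wild-type strain, which had been purified from spleen and activated in culture for 48 h with antibodies to CD3 and CD28, in RPMI medium supplemented with serum, recombinant mouse IL-2, 2-mercaptoethanol and L-glutamine. Ponatinib, a multi-kinase inhibitor whose targets include BCR-ABL and the SRC family, was present at 10 nM in 3 samples and the solvent DMSO in the other 3, and both groups shared the strain, the antibodies, the IL-2 and the time. Levels were in TPM (a share of the library corrected for transcript length). The activating antibodies bind products of genes described here, CD3 and CD28, in both groups alike. Nothing in the labels tells whether replicates came from different mice or cultures, and the p-values reflect the spread among these samples alone, possibly a technical one.

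The T cell receptor recognises peptide on MHC molecules through its alpha and beta chains, which have almost no cytoplasmic tail. The CD3 and zeta chains that travel with them carry the tyrosine motifs phosphorylated by Lck and Fyn and bound by ZAP-70. CD8, made of an alpha and a beta chain on conventional CD8 T cells, binds MHC class I, and its alpha chain brings Lck to the receptor. CD28 and ICOS add costimulation through PI3K. CD5 and CD6 sit near the receptor and recruit proteins that mostly dampen its signal.

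With ponatinib, transcripts of both CD8 chains and of Cd3e rose, while Cd3d, Cd3g, Cd247, Cd28, Icos, Cd5 and Cd6 did not pass the test. Cd8a averaged 346 ± 22.0 TPM with ponatinib and 238 ± 9.41 TPM with DMSO (SD, n = 3 each), a 1.45-fold ratio of means. Cd8b1 averaged 449.9 ± 58.0 TPM with ponatinib and 322 ± 22.4 TPM with DMSO, a 1.40-fold ratio. Cd3e averaged 267 ± 25.3 TPM with ponatinib and 208.5 ± 8.50 TPM with DMSO, a 1.28-fold ratio. The beta chain constant gene Trbc2, which is part of the variable receptor and not of the 10, rose by a similar factor, 1.37-fold. Genes were called when limma's adjusted p over 6466 gene rows with a mean of at least 10 TPM was under 0.05. By that rule 3 of the 10 members were higher and 0 lower, against 29.9% of all tested genes higher and 9.88% lower (39.7% in either direction). At an unadjusted p under 0.05, 4 of the 10 members and 3191 of the 6466 genes passed. The share of members called higher was thus close to that of all genes. The median log2 fold change was 0.08 over the members and 0.10 over all 6466 genes, or -0.02 and 0.01 after scaling by medians of ratios. In bulk RNA, fewer cells of a type and less RNA per cell cannot be told apart.

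**Figure D1:**
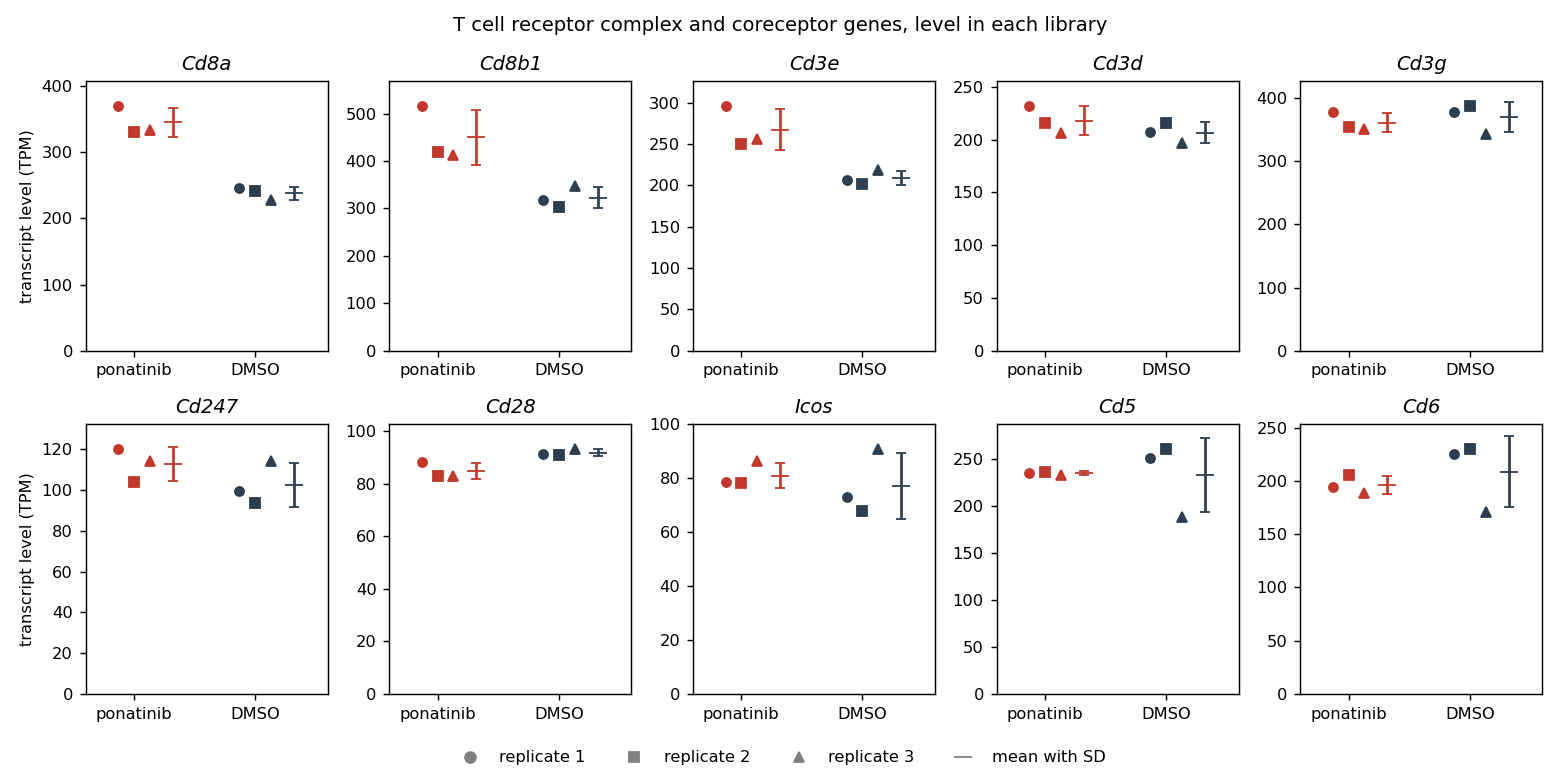
Level of each of the 10 genes in TPM (y axis, from 0) in each of 3 ponatinib and 3 DMSO libraries. Symbols mark the replicate number, which is not known to pair the groups, and the bar is the mean with its SD. Cd8a, Cd8b1 and Cd3e lie higher in every ponatinib library than in any DMSO library, and Cd5 and Cd6 are lowest in DMSO replicate 3.

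The CD3 genes sit side by side on mouse chromosome 9, and their promoters are shown with that of Cd8a, which together hold called and uncalled genes. In the annotation on GRCm38, Cd3g (chr9:44969572-44980431, minus strand) and Cd3d (chr9:44981786-44987339, plus strand) are transcribed away from each other, with starts 1.4 kb apart. Cd3e (chr9:44998740-45009627, minus strand) follows 11.4 kb beyond the end of Cd3d. Cd8b1 (chr6:71322788-71337494) and Cd8a (chr6:71373427-71379173) are both on the plus strand of chromosome 6, 35.9 kb apart. Each sequence below, from RefSeq on GRCm38.p6, runs from 250 bases before to 50 after the gene's RefSeq start, 5′ to 3′ on the gene's own strand. For Cd3e the RefSeq start lies slightly inside the gene as annotated above, and distances of motifs are counted from the RefSeq start. Capitals mark the E-box letters CANNTG, the motif bound by E proteins.
Cd8a (rose), chr6:71373177-71373476: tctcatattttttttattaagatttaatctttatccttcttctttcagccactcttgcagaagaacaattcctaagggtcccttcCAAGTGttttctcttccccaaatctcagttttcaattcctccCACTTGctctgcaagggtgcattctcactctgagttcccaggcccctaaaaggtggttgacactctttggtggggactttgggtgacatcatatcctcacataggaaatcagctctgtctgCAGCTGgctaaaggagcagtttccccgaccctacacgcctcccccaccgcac
Cd3e (rose), chr9:45009562-45009861: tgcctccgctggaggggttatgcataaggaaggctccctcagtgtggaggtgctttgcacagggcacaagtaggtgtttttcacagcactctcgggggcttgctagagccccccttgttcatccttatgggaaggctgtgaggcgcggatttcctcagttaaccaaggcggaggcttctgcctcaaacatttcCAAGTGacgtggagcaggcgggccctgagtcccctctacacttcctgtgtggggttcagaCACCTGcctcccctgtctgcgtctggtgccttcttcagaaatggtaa
Cd3d (did not pass the test), chr9:44981536-44981835: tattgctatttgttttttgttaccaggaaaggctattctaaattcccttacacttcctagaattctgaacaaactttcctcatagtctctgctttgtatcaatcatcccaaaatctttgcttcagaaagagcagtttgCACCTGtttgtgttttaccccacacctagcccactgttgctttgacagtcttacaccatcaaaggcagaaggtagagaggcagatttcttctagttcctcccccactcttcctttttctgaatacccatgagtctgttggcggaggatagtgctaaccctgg
Cd3g (did not pass the test), chr9:44980382-44980681: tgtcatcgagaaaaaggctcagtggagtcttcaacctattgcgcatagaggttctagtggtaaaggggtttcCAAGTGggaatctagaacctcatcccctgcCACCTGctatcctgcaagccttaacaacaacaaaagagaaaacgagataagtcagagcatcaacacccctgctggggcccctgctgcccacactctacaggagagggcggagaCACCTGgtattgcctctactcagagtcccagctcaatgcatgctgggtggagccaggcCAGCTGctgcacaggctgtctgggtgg
Both strands were searched, and matches of different motifs can overlap. There were 3 E-box matches in the Cd8a window, 2 in Cd3e, 1 in Cd3d and 4 in Cd3g, and 72.3% of the 32851 promoter windows in the table hold at least 1. The letters CAGGAA, a core bound by ETS factors, were found 16 bases before the start of Cd3e and 227 before that of Cd3d, and in 30.6% of all windows. The CRE core TGACGT was found once, 53 bases before the start of Cd3e, where it shares bases with an E-box, and in 7.51% of all windows. The RUNX letters TGTGGT were in none of the 4 windows and in 16.8% of all windows. These matches describe letters only. Of the 10 genes, 6 had a window in the table.

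The CD8 coreceptor chains rose together. Cd8a, whose product binds MHC class I and Lck, stood at 371, 331 and 335 TPM in ponatinib replicates 1 to 3, against 245, 241 and 227 TPM in DMSO replicates 1 to 3. Every ponatinib library was above every DMSO library, as in 39.4% of all tested genes, and groups did not overlap in either direction in 53.4%. Its log2 fold change was 0.54 (SE 0.06, 95% interval 0.40 to 0.67, adjusted p = 6.39e-04, limma), or 0.43 above the median of all genes, and 4.13% of all tested genes had a log2 fold change at least as high. Cd8b1, whose product pairs with the alpha chain and strengthens coreceptor function, stood at 517, 420 and 413 TPM in cells given ponatinib and at 317, 303 and 347 TPM in those given DMSO. Ponatinib replicate 1 was the highest, and the lowest ponatinib library was above the highest DMSO library. Its log2 fold change was 0.48 (SE 0.09, 95% interval 0.26 to 0.69, adjusted p = 0.00595, limma), or 0.37 above the median of all genes, and 5.72% of genes had one at least as high.

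The ratio of the CD8 chains did not separate the groups. Cd8a over Cd8b1 was 0.718, 0.789 and 0.810 in the ponatinib libraries, against 0.775, 0.795 and 0.656 in the DMSO libraries. The alpha chain transcript was thus below the beta chain transcript in all 6 libraries, and the lowest ratio was in DMSO replicate 3. Set against Cd8b1 in the same library, Cd8a differed by 0.06 on the log2 scale (SE 0.16, 95% interval -0.24 to 0.37, adjusted p = 0.729, limma), where 56.3% of all genes were called in either direction. The exact two-sided permutation test of the 6 ratios gave p = 0.6, where 0.1 is the smallest p that 3 against 3 libraries allow. Without DMSO replicate 3 the difference was -0.03. The interval does not exclude an unequal rise of up to 0.37 on the log2 scale.

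Of the CD3 and zeta chains, Cd3e rose and the other 3 did not pass the test. Cd3e, whose product joins both CD3 dimers of the complex, stood at 296, 249.9 and 256 TPM in ponatinib replicates 1 to 3, against 206, 201 and 218 TPM in DMSO replicates 1 to 3. The groups did not overlap. Its log2 fold change was 0.35 (SE 0.07, 95% interval 0.19 to 0.52, adjusted p = 0.00683, limma), or 0.25 above the median of all genes, and 12.3% of genes had one at least as high. Cd3d, the delta chain, stood at 232, 216 and 206 TPM with ponatinib and 208, 216 and 197 TPM with DMSO. These groups overlapped, and the log2 fold change of 0.08 (95% interval -0.06 to 0.22) did not pass the test (adjusted p = 0.342, limma). Cd3g, the gamma chain, stood at 379, 354 and 352 TPM with ponatinib and 378, 388 and 343 TPM with DMSO. It overlapped throughout, with a log2 fold change of -0.03 (95% interval -0.17 to 0.11, adjusted p = 0.714, limma). Cd247, the zeta chain, which carries most of the tyrosine motifs of the complex, stood at 120.3, 104 and 114 TPM with ponatinib and 99.4, 93.7 and 114 TPM with DMSO. DMSO replicate 3 lay among the ponatinib libraries. Its log2 fold change was 0.14 (95% interval -0.06 to 0.34, adjusted p = 0.222, limma), and without DMSO replicate 3 it was 0.22 and higher (adjusted p = 0.0200). More genes in all were called without that library, 3422 of 6428 against 2570 of 6466.

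**Figure D2:**
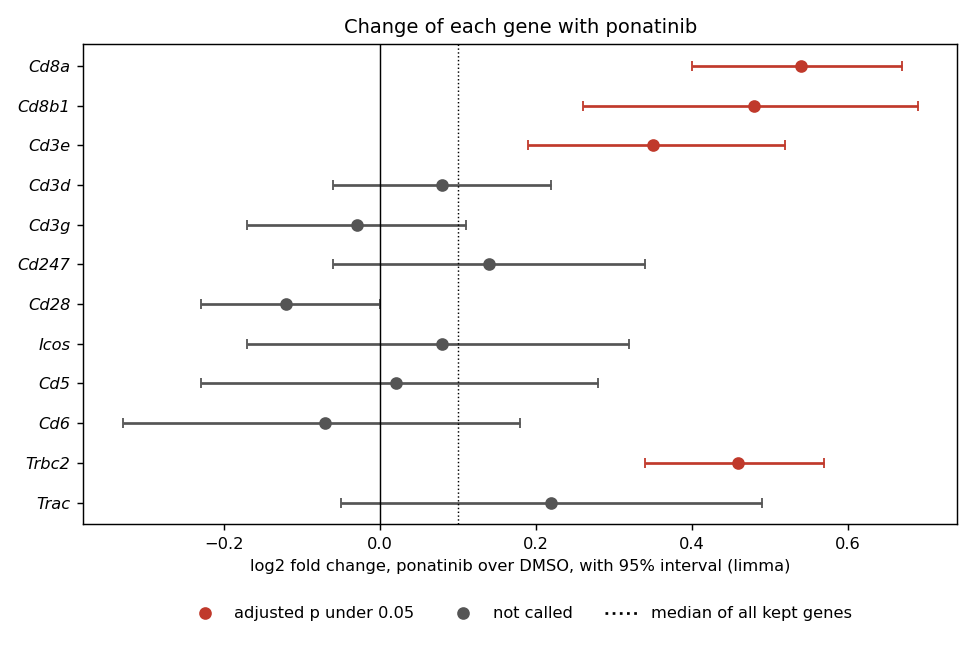
Log2 fold change of ponatinib over DMSO (x axis) with its 95% interval from limma for the 10 genes and for the receptor chain genes Trbc2 and Trac, with the median of all genes, 0.10, as a dotted line. Cd8a, Cd8b1, Cd3e and Trbc2 (red) passed the test, between 0.35 and 0.54, and the other genes lie nearer to the dotted line.

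Ratios within a library do not depend on how the library was scaled. Cd3e over Cd3d was 1.28, 1.16 and 1.24 with ponatinib, against 0.993, 0.932 and 1.11 with DMSO. Every ponatinib library was above every DMSO library (exact permutation p = 0.1, the smallest possible; 0.127 adjusted over the 19 ratios computed). Set against Cd3d, Cd3e differed by 0.28 on the log2 scale (95% interval 0.06 to 0.49) and did not pass the test (adjusted p = 0.0789, limma), where 15.1% of all genes were called. Without DMSO replicate 3 the difference was 0.34 (adjusted p = 0.0115). Cd3g over Cd3d, the divergent neighbours, was 1.63, 1.64 and 1.71 with ponatinib, against 1.82, 1.80 and 1.74 with DMSO. These did not overlap either (exact permutation p = 0.1), but the difference of -0.11 (95% interval -0.31 to 0.10) did not pass the test (adjusted p = 0.549, limma). In these fits each gene carries the spread of its partner as well, and a pair's error is drawn towards that of all genes set against the same partner.

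Cd8a rose relative to the CD3 and zeta chains as a set. Cd8a over the geometric mean of Cd3e, Cd3d, Cd3g and Cd247 was 1.57, 1.57 and 1.56 in the ponatinib libraries, against 1.23, 1.21 and 1.12 in the DMSO libraries. The ponatinib values had an SD of 0.00445 and lay above all DMSO values. The difference was 0.40 on the log2 scale (SE 0.09, 95% interval 0.22 to 0.58, adjusted p = 0.00182, limma), where 21.1% of all genes were called, and the exact permutation p was 0.1. Cd8b1 over the same mean was 2.18, 1.99 and 1.93 with ponatinib, against 1.58, 1.52 and 1.71 with DMSO, a difference of 0.34 (adjusted p = 0.00888, limma), which was lost without DMSO replicate 2 (adjusted p = 0.0558).

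The single CD3 chains were set against Cd8a in the same way. Cd3d over Cd8a was 0.627, 0.653 and 0.616 with ponatinib, against 0.846, 0.896 and 0.865 with DMSO. Cd3g over Cd8a was 1.02, 1.07 and 1.05 with ponatinib, against 1.54, 1.61 and 1.51 with DMSO, so that the gamma chain transcript was close to the alpha chain transcript with ponatinib and above it with DMSO. On the log2 scale Cd3d differed from Cd8a by -0.46 (adjusted p = 3.05e-04, limma), Cd3g by -0.57 (adjusted p = 2.47e-05) and Cd247 by -0.39 (adjusted p = 0.00312). Cd3e differed from it by -0.18 (95% interval -0.39 to 0.03, adjusted p = 0.1003, limma). Relative to Cd8a 79.3% of all genes were called, so these calls are not particular to the CD3 chains. Set against Cd8b1, Cd3d differed by -0.40 (adjusted p = 0.0235, limma) and Cd3g by -0.51 (adjusted p = 0.00399, limma). Cd247, at -0.33 (adjusted p = 0.0570, limma), and Cd3e, at -0.12 (adjusted p = 0.482, limma), did not pass that test. Relative to Cd8b1 56.3% of all genes were called.

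**Figure D3:**
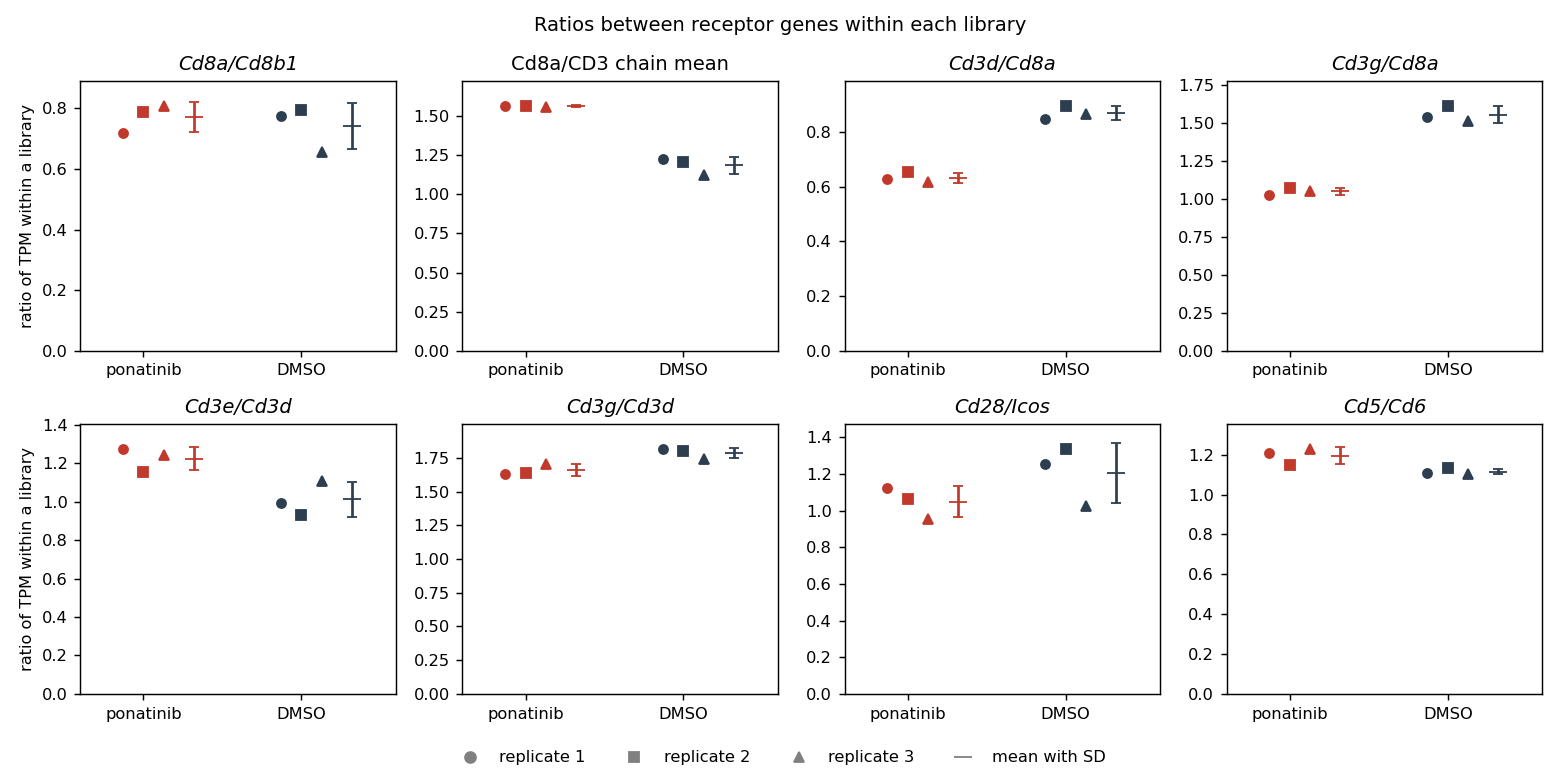
Ratio of TPM within each library (y axis, from 0) for 8 pairs of receptor genes, with 3 ponatinib and 3 DMSO libraries and the mean with SD; the CD3 chain mean is the geometric mean of Cd3e, Cd3d, Cd3g and Cd247. Cd8a over Cd8b1 overlaps between the groups, whereas Cd8a over the CD3 chain mean is 1.56 to 1.57 with ponatinib and 1.12 to 1.23 with DMSO.

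The costimulatory receptors Cd28 and Icos were at lower levels than the other members and did not pass the test. Cd28, which gives the second signal of T cell activation and is bound by the activating antibody, stood at 88.2, 83.1 and 82.8 TPM in ponatinib libraries, against 91.4, 90.7 and 93.3 TPM in DMSO libraries. The ponatinib libraries were all below the DMSO libraries, as in 14% of all tested genes. The log2 fold change was -0.12 (SE 0.05, adjusted p = 0.0983, limma), or -0.22 relative to the median of all genes. With medians of ratios or quantile normalization as the scaling, Cd28 was called lower (log2 fold changes of -0.21 and -0.19, adjusted p of 0.0268 and 0.0228). Icos, an activation-induced relative of CD28, stood at 78.4, 78.1 and 86.5 TPM with ponatinib and 73.0, 67.8 and 91.0 TPM with DMSO. Its groups overlapped, since DMSO replicate 3 was the highest of all 6. The log2 fold change was 0.08 (95% interval -0.17 to 0.32, adjusted p = 0.589, limma), and without DMSO replicate 3 Icos was higher, at 0.20 (adjusted p = 0.0248). With medians of ratios the log2 fold change of Icos was -0.01.

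Ctla4, the inhibitory relative that competes with CD28 for its ligands, lies between Cd28 and Icos on chromosome 1, 113.6 kb from Cd28 and 62.1 kb from Icos. It stood at 23.6, 27.8 and 32.03 TPM in ponatinib libraries, against 71.1, 58.5 and 236 TPM in DMSO libraries, and fell, with a log2 fold change of -1.81 (SE 0.45, adjusted p = 0.0155, limma). Without DMSO replicate 3 its log2 fold change was -1.19, and it did not pass the test when ponatinib replicate 1 was left out (adjusted p = 0.0627), with no filter (0.0536) and with robust empirical Bayes (0.0643). Ctla4 over Icos was 0.301, 0.356 and 0.370 with ponatinib, against 0.974, 0.864 and 2.59 with DMSO, with no overlap (exact permutation p = 0.1). Cd28 over Icos was 1.12, 1.06 and 0.958 with ponatinib, against 1.25, 1.34 and 1.03 with DMSO. These overlapped, with a difference of -0.19 (95% interval -0.47 to 0.08, adjusted p = 0.387, limma), and without DMSO replicate 3 it was -0.30 (adjusted p = 0.00769).

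Cd5 and Cd6, neighbours on the minus strand of chromosome 19 with a gap of 50.3 kb, varied more among the DMSO libraries than between the groups. Cd5, whose level in T cells is known to track receptor signal strength, stood at 235, 236 and 232 TPM in ponatinib libraries, against 250.2, 260.5 and 188 TPM in DMSO libraries. The ponatinib libraries lay between the DMSO libraries. Cd6, the receptor for ALCAM, stood at 194, 206 and 189 TPM in cells given ponatinib and at 225, 230.1 and 170.3 TPM in those given DMSO. DMSO replicate 3 was again the lowest of all. Log2 fold changes were 0.02 for Cd5 (95% interval -0.23 to 0.28, adjusted p = 0.883, limma) and -0.07 for Cd6 (95% interval -0.33 to 0.18, adjusted p = 0.621). Medians of ratios put Cd5 at -0.07 and quantile normalization at -0.02, and Cd6 was at 0.01 with its transcript row added. Without DMSO replicate 3 both were called lower, at -0.12 (adjusted p = 0.0427, limma) and -0.21 (adjusted p = 0.00694, limma). Their call thus depended on that library, and the direction of Cd5 on that library and on the scaling. Among all genes 3422 of 6428 were called without that library. Cd5 over Cd6 was 1.21, 1.15 and 1.23 with ponatinib and 1.11, 1.13 and 1.105 with DMSO, with no overlap (exact permutation p = 0.1). The ratio had an SD of 0.0425 in ponatinib libraries and 0.0146 in DMSO libraries, and its difference of 0.10 (95% interval -0.26 to 0.46) did not pass the test (adjusted p = 0.793, limma, where 6.73% of genes were called).

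The order of levels, which TPM allow since they are per length, changed at its top. With ponatinib, Cd8b1 at 449.9 TPM stood above Cd3g at 362 TPM with no overlap of their libraries. With DMSO, Cd3g at 369.7 TPM and Cd8b1 at 322 TPM overlapped. Cd3g and Cd8a overlapped with ponatinib, at 362 and 346 TPM, while with DMSO Cd8a, at 238 TPM, overlapped with Cd5 next to it in the order. With DMSO, Cd8a, Cd5, Cd6, Cd3e and Cd3d formed a run from 238 to 207 TPM in which each overlapped the next. This order is of gene rows and leaves out transcripts listed on rows of their own. With those added, DMSO means were 239.97 TPM for Cd5, 237.91 for Cd8a and 237.53 for Cd6. Cd6 then averaged 235.97 TPM with ponatinib, in place of 196.37 TPM. Cd247 came eighth in both groups, at 113 TPM with ponatinib and 102 TPM with DMSO, and Cd28 and Icos came last and overlapped each other in both. The spread between replicates was largest, relative to the mean, for Cd5, Cd6 and Icos in DMSO libraries, at 16.8%, 16.0% and 15.8%, and smallest for Cd5 in ponatinib libraries, at 0.837%.

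The deposited table also listed some transcripts on rows of their own, and 5 of the 10 genes had 1 such row. For Cd6 this was Cd6-205, a 982-base transcript of 6 exons whose annotated coding sequence stops short at its 3′ end, so its reads may be shared with full-length forms. It stood at 34.5, 44.1 and 40.2 TPM in ponatinib libraries, against 31.4, 36.0 and 19.3 TPM in DMSO libraries. As a share of the Cd6 total it made up 15.1%, 17.6% and 17.5% with ponatinib, against 12.2%, 13.5% and 10.2% with DMSO. The shares did not overlap (exact permutation p = 0.1, the smallest possible). In a limma fit over 14221 gene and transcript rows with a mean of at least 1 TPM, of which 20.3% were called and 14.6% were higher, Cd6-205 did not pass the test (log2 fold change 0.48, SE 0.22, adjusted p = 0.186). Set against the Cd6 gene row it differed by 0.55 (SE 0.19, adjusted p = 0.162, limma).

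The transcript row of Cd5, an 825-base fragment with an incomplete 5′ coding end, was the called one. It stood at 10.5, 8.92 and 11.8 TPM in cells given ponatinib and at 6.95, 7.98 and 6.21 TPM in those given DMSO, and rose, with a log2 fold change of 0.50 (SE 0.13, adjusted p = 0.0404, limma). That call was lost in all but 1 of the leave-one-out fits, with adjusted p of up to 0.128, and with medians of ratios (0.0982). Its share of Cd5 was 4.25% ± 0.591 in ponatinib libraries and 2.96% ± 0.248 in DMSO libraries (SD, n = 3 each). Set against the Cd5 gene row, the difference of 0.48 did not pass the test (adjusted p = 0.448, limma). The row of Cd3g, Cd3g-203, stood at 21.1, 15.4 and 14.2 TPM with ponatinib and 21.6, 14.3 and 14.5 TPM with DMSO, and its share of Cd3g overlapped fully between the groups. The rows of Cd3d and Cd247 were under 1 TPM on average, and that of Cd247 was listed at 0 in every library.

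**Figure D4:**
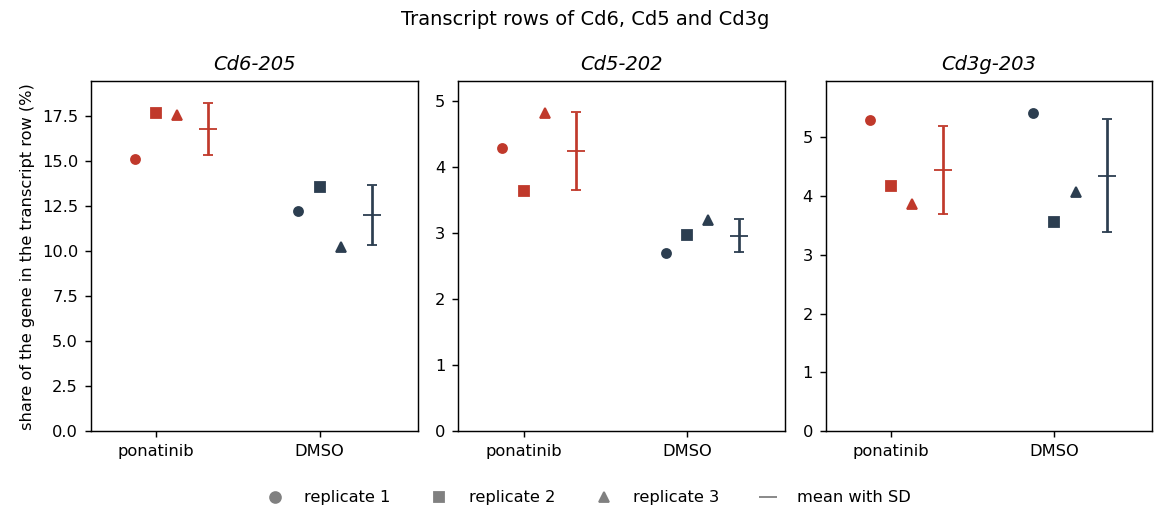
Share of a gene's TPM that was listed on its separate transcript row (y axis, percent, from 0) for Cd6, Cd5 and Cd3g in 3 ponatinib and 3 DMSO libraries, with the mean and SD. The share of Cd6-205 is 15.1% to 17.6% with ponatinib and 10.2% to 13.5% with DMSO, and that of Cd3g-203 overlaps.

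The variable chains of the receptor were split over rows as well. Trbc2, a beta chain constant gene on chromosome 6, stood at 1624, 1496 and 1533 TPM in ponatinib libraries, against 1159, 1135 and 1096 TPM in DMSO libraries (log2 fold change 0.46, SE 0.05, adjusted p = 5.84e-04, limma). Trbc1, its near-identical copy, was listed at 11.2, 0 and 3.05 TPM with ponatinib and 0, 0 and 30.1 TPM with DMSO on its gene row, and nearly all of its level was on a transcript row. That row stood at 656, 611 and 616 TPM in cells given ponatinib and at 522, 502 and 465 TPM in those given DMSO, and rose (0.34, adjusted p = 0.0103, limma), a call lost with medians of ratios (0.25, adjusted p = 0.108). How reads were divided between the copies is uncertain, and their sum was 2183 ± 96.2 TPM with ponatinib and 1637 ± 44.8 TPM with DMSO (SD, n = 3 each). Trac, the alpha chain constant gene on chromosome 14, stood at 194, 172 and 216 TPM with ponatinib and 164, 144 and 192 TPM with DMSO on its gene row. Its groups overlapped and it did not pass the test (0.22, adjusted p = 0.163, limma), but it did without DMSO replicate 3 (0.33, adjusted p = 0.0146). Most of the Trac level was on a transcript row, at 516, 479.9 and 493 TPM with ponatinib and 448, 414 and 499 TPM with DMSO, which overlapped (0.13, adjusted p = 0.250, limma). This transcript row was also called higher without DMSO replicate 3 (0.20, adjusted p = 0.0407, limma). Both rows summed to 690.3 ± 33.7 TPM with ponatinib and 620.3 ± 66.9 TPM with DMSO (SD, n = 3 each; adjusted p = 0.153, limma). Trbc2 over Cd8b1 was 3.47 ± 0.294 with ponatinib and 3.52 ± 0.316 with DMSO, a difference of -0.02 (95% interval -0.31 to 0.27, adjusted p = 0.910, limma).

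The libraries were checked for other cells. Cd4 was at 4.56, 5.32 and 4.23 TPM in ponatinib libraries, against 0.713, 1.20 and 2.84 TPM in DMSO libraries, far below Cd8a, and was called higher among all rows (adjusted p = 0.0345, limma), a call lost in 5 of the 6 leave-one-out fits. The 6 CD8 T cell markers, all of them members, summed to 1675 to 1915 TPM with ponatinib and 1443 to 1453 TPM with DMSO. The 4 CD4 T cell markers summed to 16.4 to 19.7 TPM with ponatinib and 5.21 to 9.53 TPM with DMSO, but did not move together. Foxp3 was at 10.416, 6.78 and 7.221 TPM with ponatinib and 1.206, 1.369 and 0.778 TPM with DMSO, and Cd40lg was also higher with ponatinib. Zbtb7b went the other way, at 1.029, 1.096 and 0.978 TPM with ponatinib and 2.478, 1.458 and 4.636 TPM with DMSO. The 6 gamma delta T cell markers summed to 12.2 to 17.3 TPM with ponatinib and 4.76 to 5.41 TPM with DMSO. The 9 B cell markers other than Ighm summed to 20.02 to 22.5 TPM with ponatinib and 8.99 to 15.8 TPM with DMSO. Of 9 dendritic cell markers, looked at because a subset of those cells carries Cd8a, Xcr1 and Clec9a were at most 0.053 TPM and Siglech was at 0 in every library. The 9 summed to 23.9 to 28.0 TPM with ponatinib and 13.8 to 46.9 TPM with DMSO, highest in DMSO replicate 3. Most of this was MHC class II genes, which did not move together. H2-Aa was at 12.6, 13.8 and 12.3 TPM with ponatinib and 1.12, 2.25 and 7.51 TPM with DMSO. H2-Ab1 was at 7.07, 9.82 and 10.5 TPM with ponatinib and 12.7, 10.6 and 34.1 TPM with DMSO, and H2-Eb1 overlapped. Itgax was at 0.265, 0.376 and 0.123 TPM with ponatinib and 0.036, 0.012 and 0.020 TPM with DMSO. Myeloid markers (8 genes) summed to 4.36 to 6.95 TPM with ponatinib and 1.67 to 2.27 TPM with DMSO, those of NK cells (5) to at most 0.985 and 0.448 TPM, and those of erythroid cells and platelets (7) to 4.12 to 8.37 and 0.797 to 1.89 TPM. With Ighm the B cell sum was 156 to 176 TPM with ponatinib and 140.1 to 168 TPM with DMSO. Mitochondrially encoded transcripts summed to 71589 to 81896 TPM with ponatinib, and to 97643, 106853 and 47817 TPM in DMSO replicates 1 to 3. The part of these markers and of mitochondrial transcripts in the results was not tested. The second principal component, with 16.3% of the variance, set DMSO replicate 3 apart.

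The 5 genes whose profile lay nearest to that of Cd8a over the 6 libraries, by Euclidean distance of mean-centred log2(TPM + 1), were Tnfaip8l2, Rac2, Ppp3ca, Il2rg and Trbv12-1, at distances of 0.05 to 0.09. Il2rg, the common gamma chain of cytokine receptors, stood at 528, 494 and 486 TPM in cells given ponatinib and at 371, 358 and 331 TPM in those given DMSO. Rac2, a GTPase of blood cells, stood at 274, 249 and 255 TPM in ponatinib libraries, against 176, 177 and 170 TPM in DMSO libraries. Among the other members Cd8b1 came nearest, at rank 231 of 6465 genes, then Cd3e at rank 304, while Cd3d was at rank 2752 and Cd3g at rank 4097.

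Genes that act next to the receptor were followed as lists of named genes, for which counts follow the same fit as above. Of all 6466 genes 29.9% were higher and 9.88% lower in that fit, and 1095 were higher and 1077 lower with medians of ratios. With ponatinib replicate 1, 2 or 3 left out, 1997, 1660 and 1605 genes were called in either direction, against 2570 in the main fit. Leaving out DMSO replicate 1 or 2 gave 1801 and 2088. Smaller list counts in these fits thus came with fewer calls among all genes. Of 7 constant genes of receptor chains 2 were tested, of which Trbc2 was higher, and the median was 0.34. Of 20 tested (22 listed) kinases, adaptors and phosphatases, 10 were higher and 2 lower (8 and 3 with medians of ratios), with a median log2 fold change of 0.17. Grap2, an adaptor that links LAT to SLP-76, rose to 166 ± 8.58 TPM with ponatinib, against 117 ± 4.16 TPM with DMSO, and the adaptor Skap1 to 153 ± 9.31 against 112 ± 4.04 TPM. The kinase Fyn rose by 0.33 and the phosphatase Ptprc (CD45) by 0.35 on the log2 scale. Lck, the kinase that CD8 and CD4 bind, was named after its values were seen: it stood at 341, 336 and 337 TPM with ponatinib and 340.02, 352 and 340.25 TPM with DMSO, and did not pass the test (-0.03, adjusted p = 0.655, limma).

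Of 8 tested genes of receptor turnover, 3 were higher and 2 lower (2 and 2 with medians of ratios), with a median of 0.13. Without ponatinib replicate 2 or 3 the higher ones numbered 0 and 1, and without DMSO replicate 1 or 2 they numbered 2. Fewer of all genes were called in these fits as well. Sla, encoding an adaptor that promotes removal of receptor chains, fell to 72.8 ± 2.03 TPM with ponatinib, against 112 ± 17.3 TPM with DMSO. The ubiquitin ligase gene Cblb fell to 36.7 ± 0.696 TPM, against 70.1 ± 19.8 TPM with DMSO, where replicate 3 was highest at 92.9 TPM. Sla2 and Ubash3a rose by 0.35 and 0.36, calls lost without ponatinib replicate 2 (adjusted p of 0.0574 and 0.0571), and that of Ubash3a also without ponatinib replicate 3 (0.0727) and with medians of ratios (0.118). Of 9 tested ligands and partners of CD5 and CD6, 7 were higher and 2 lower (5 and 2 with medians of ratios), with a median of 0.27. Of these 9 genes 7 also stand in the kinase or the turnover list, and 4 were higher without ponatinib replicate 2 or 3. Alcam, the ligand of CD6, rose to 40.3 ± 3.43 TPM with ponatinib, against 26.7 ± 1.61 TPM with DMSO. Ptpn6, the phosphatase SHP-1, fell by 0.25 and Lcp2 (SLP-76) rose by 0.33 on the log2 scale.

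Of 6 tested CD28 relatives and PI3K subunits, 3 were higher and 1 lower (1 and 1 with medians of ratios), with a median of 0.26. The higher ones numbered 1 without ponatinib replicate 2, ponatinib replicate 3 or DMSO replicate 2, and 2 were lower without either of those ponatinib libraries. Pik3cd, the PI3K catalytic subunit of leukocytes, rose by 0.33 (adjusted p = 0.00283, limma). Pdcd1 (PD-1) and Pik3ca rose by 0.22 and 0.23, calls lost with medians of ratios (adjusted p of 0.0687 and 0.108) and in several leave-one-out fits. Of 8 tested T cell surface glycoproteins, 6 were higher and 1 lower (4 and 1 with medians of ratios), with a median of 0.33. The adhesion receptor Cd2 fell to 240.4 ± 5.53 TPM with ponatinib, against 419.7 ± 83.2 TPM with DMSO, while Cd226 and Cd96, which share a ligand, rose by 0.82 and 0.85. The costimulatory receptor Cd27 rose by 0.39.

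Of 13 tested transcription factors known from the control of Cd8 and Cd3 genes, 8 were higher and 3 lower (7 and 4 with medians of ratios), with a median of 0.40. Without ponatinib replicate 2 there were 6 higher and 1 lower, without ponatinib replicate 3 there were 5 and 1, and without ponatinib replicate 1 there were 7 and 1. Calls among all genes were fewer in these fits too. Tcf7 rose to 211 ± 22.7 TPM with ponatinib, against 117 ± 10.5 TPM with DMSO, Bcl11b to 42.8 ± 4.62 against 24.7 ± 0.899 TPM, and Ikzf1 (Ikaros) to 224 ± 7.62 against 160.4 ± 4.78 TPM. Cbfb, the partner of RUNX factors, rose by 0.44. The 3 lower genes, named after their values were seen, were Runx3, Tbx21 and Tcf3. Their log2 fold changes were -0.34, -0.54 and -0.27 (adjusted p of 0.0356, 0.00283 and 0.0490, limma).

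**Figure D5:**
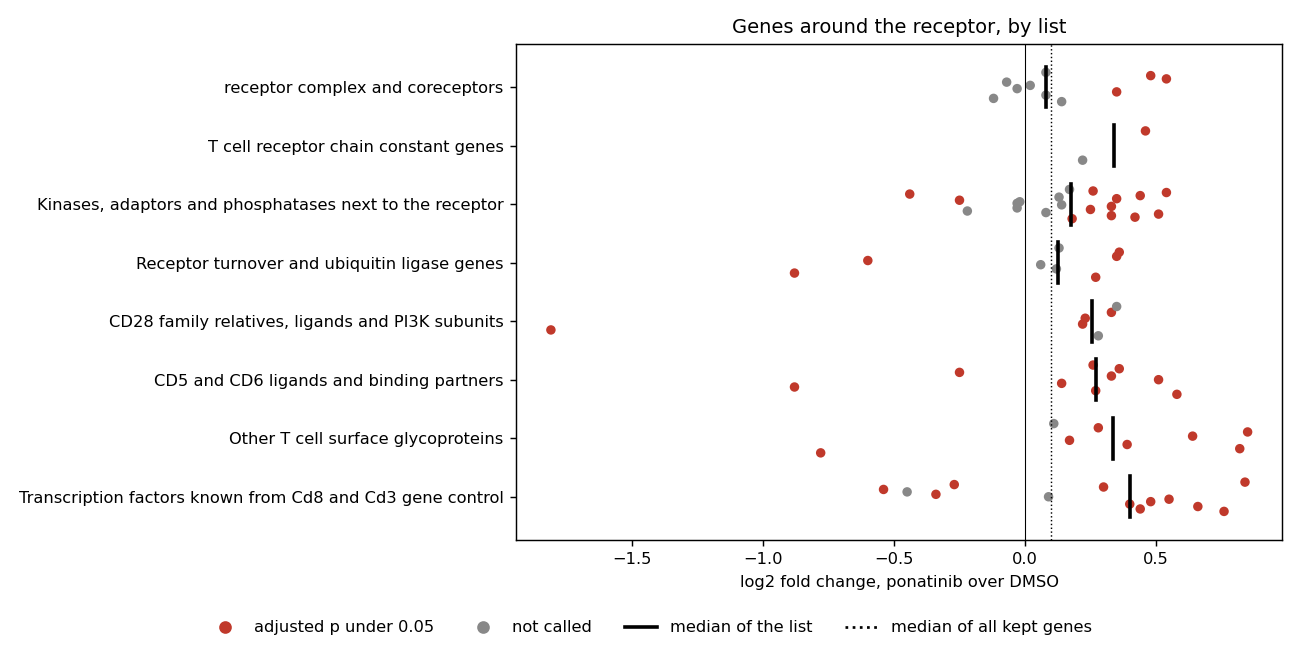
Log2 fold change of ponatinib over DMSO (x axis) of each tested gene in the 10 members and 7 lists (y axis), with called genes in red, list medians as thick bars and the median of all genes, 0.10, as a dotted line. The members have a median of 0.08, and the transcription factors a median of 0.40; Ctla4 is the point at -1.81.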

How the data were processed

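Per the labels' protocols, total RNA was extracted with RNeasy Plus Micro columns and libraries were made with a NEBNext Ultra II kit. The labels do not state whether strand was kept. The authors deposited 1 table, in which each of the 6 columns sums to 1000000, as TPM do. Tools listed in the submitters' processing notes, with no roles, are Salmon 1.5.1, fastp 0.19.5 and DESeq2 1.22.1, with the build GRCm38. The table held 22095 gene rows and 20977 transcript rows. Gene names and positions were taken from GENCODE mouse release 21 (GRCm38), matched by ID without version (22011 gene rows and 20793 transcript rows matched, 11 rows with the same version), so the authors' annotation was another release. TPM keep no depth, so reads per library are unknown and precision is set by 3 libraries a group.

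Gene rows with a mean of at least 10 TPM (6466) were tested on log2(TPM + 1), a scale on which changes of low genes come out smaller, with limma 3.58.1 in R 4.3.3 (eBayes with intensity trend, two-sided, Benjamini-Hochberg over all 6466). Fold ratios are of mean TPM. Ratios were tested with the same fit after subtracting the partner gene, and with exact permutation tests. The scripts were tested on simulated data. The 10 members, the 7 lists and the tests were chosen with earlier results of these data known. Named were all members, Trac, Trbc1, Trbc2, Cd4, Ctla4, up to 4 called genes with the smallest p per list and the 5 genes nearest to Cd8a; any other is marked. Alternatives were other pseudocounts, filters, scalings, empirical Bayes settings, added transcript rows, a replicate block and leaving out each library.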

Additional observations from a re-analysis of the deposited data

How the results depend on the processing

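Cd8a, Cd8b1 and Cd3e stayed higher in all 16 alternatives, with log2 fold changes of 0.44 to 0.56, 0.37 to 0.53 and 0.26 to 0.40, and Cd8a stayed higher relative to the CD3 chain mean (0.36 to 0.42). Among all genes, 1931 were higher and 639 lower (75.1% of calls higher). Medians of ratios gave 1095 and 1077 (50.4%) and quantile normalization 1276 and 1001 (56.0%), with the median of all genes at 0.01 and 0.03. Under both, 1 member, Cd28, was lower, the Cd5 transcript row was no longer called at 0.42 and 0.43, and Cd3g-203 turned to -0.08 and -0.06. Medians of ratios turned Cd3d to -0.02, Icos to -0.01 and Cd5 to -0.07, quantile normalization Cd5 to -0.02, and added transcript rows Cd6 to 0.01. The Cd5 transcript row was also lost with no filter and without a trend (0.50 each), and Ctla4 over Icos with robust empirical Bayes (-1.89).

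With 1 library left out, the genes called higher numbered 1138 to 2745 and the genes called lower 463 to 677, and those higher were fewest without ponatinib replicate 3 (1138) and replicate 2 (1197). Of the members 3 to 5 were higher and 0 to 2 lower, with 5 and 2 without DMSO replicate 3. Without that library 3422 of 6428 genes were called (80.2% of them higher, median 0.14), against 2570 of 6466 in the main fit. The calls gained there by Cd247, Icos, Cd5, Cd6 and Trac thus came with more calls among all genes. Ranges were -0.03 to 0.11 for Cd8a relative to Cd8b1, 0.22 to 0.34 for Cd3e over Cd3d, -0.30 to -0.11 for Cd28 over Icos, 0.41 to 0.60 for the Cd5 transcript row and -0.15 to 0.20 for Cd3g-203. They were -0.08 to 0.01 for Cd3g, -0.01 to 0.20 for Icos, -0.12 to 0.11 for Cd5, -0.21 to 0.00 for Cd6 and -0.09 to 0.05 for Trbc2 over Cd8b1. Cd3d over Cd8b1 and Cd3g over Cd8b1 lost their call without DMSO replicate 1 or 2, and Cd3d over Cd8b1 also without ponatinib replicate 2. For all of these changes, the cause was not tested.

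The labels do not say whether the replicate number pairs the samples. Deviations from the group means of same-numbered libraries correlated at -0.10, 0.13 and 0.01 across genes. With 3 libraries a group these values cannot decide it. With the replicate number as a block, 2557 genes were called in place of 2570. Cd3e over Cd3d was then called at 0.28 (adjusted p = 0.0207, limma), and the Cd5 transcript row was lost (0.50). Trac (0.0141) and Cd3e over Cd8a (0.0485) also passed, and Cd3d over Cd8b1 (0.0527), Cd4 (0.0619) and Pik3ca (0.0517) no longer did. Depth is unknown, so no counting error can be given.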

Other observations

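The variable gene segments of the receptor were looked at after Trbv12-1 had come out near Cd8a. They lie on the same RNA as their constant genes, so a shared direction is no separate result. Of 21 beta chain (Trbv) gene rows 17 were tested, and 16 were higher with ponatinib and 0 lower, with log2 fold changes from 0.23 for Trbv1 to 0.61 for Trbv5 and a median of 0.43; of all tested genes 29.9% were higher and 9.88% lower. The set was chosen through 1 of its own members, so its count is a description. The sum of all 21 rows was 2115, 1934 and 1991 TPM in cells given ponatinib and at 1639, 1468 and 1397 TPM in those given DMSO. Of 92 alpha chain (Trav) gene rows 22 were tested, and 0 were called by limma in either direction, with a median of 0.19. The sum over all 92 was 623, 552 and 598 TPM in ponatinib libraries, against 496, 483 and 608 TPM in DMSO libraries. Some alpha chain segments are near-identical copies, so how their reads were split is uncertain. The difference between the alpha and beta chain segments was not tested.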
